A study of Homo sapiens with 9 samples.

Results

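The genes described here are the contractile targets of serum response factor (SRF) and the actomyosin machinery: myosin light and heavy chains, the kinases and the phosphatase that act on the light chain, tropomyosins, calponins and caldesmon, and proteins that crosslink or anchor actin filaments. The list held 39 genes, chosen by name with earlier results of these data known. Of these, 35 had at least 1 probe set annotated to that gene alone, among 19775 genes with such a probe set on the array, and the other 4 were not analysed here. The 35 genes were read by 110 probe sets, or 3.14 per gene against 2.08 over all genes. There were 9 genes with a single probe set and 26 with several. A further 3 probe sets that carried several symbols, MYL12A with MYL12B in 1 case and DAPK3 with a microRNA gene in the others, were not assigned to a gene.

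The study asked how actin that accumulates in the nucleus alters gene expression in keratinocytes. HaCaT, an immortalised human epidermal keratinocyte line, was compared with derivatives stably transfected to express GFP-tagged β-actin (WT-actin) or the same fusion with a nuclear localization sequence (NLS-actin). Both derivatives were populations selected with G418 until GFP positive, whereas the parental line carried no plasmid, so that the construct and whatever else sets these lines apart cannot be told apart. Total RNA of each line was hybridised to 3 Affymetrix U133 Plus 2.0 arrays, called experimental replicates, with nothing that says whether they were separate cultures, so that p-values measure the spread between these arrays.

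SRF is a transcription factor that binds a DNA element named the CArG box, and its cofactors of the MRTF family are held inactive by monomeric actin. When actin polymerises in the cytoplasm, MRTF enters the nucleus and SRF activates genes for actin, myosin light chain, vinculin, transgelin, caldesmon and calponins. The same proteins build stress fibres, in which phosphorylated myosin II light chain drives contraction against focal adhesions, and keratinocytes use these to spread and migrate.

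MAS5 signals, which are linear intensities, were converted to log2, and log2 fold changes are differences of mean log2 signal between lines. The median signal of an array ran from 29.7 to 43.3. A log2 level of 5.07 (a signal of 33.5) was the median over all probe sets, and 33 of the 35 genes had their brightest probe set above it. The exceptions were CNN1, the smooth muscle calponin, at signals of 0.562 to 11.5, and DAPK3, a kinase of the light chain, at 0.629 to 2.91, and no level can be read from either. The keratinocyte identity of the lines was checked with KRT5 (a parental mean signal of 8335) and KRT14 (9546), and all 5 measured keratinocyte markers lay above the median level. The 6 measured muscle markers summed to signals of 100.8 to 141 in the parental arrays, 91.0 to 114.9 in WT-actin and 89.6 to 141.2 in NLS-actin arrays, and 1 of the 6 lay above the median level. Desmin (DES), the muscle intermediate filament protein, had mean signals of 17.2, 20.6 and 2.13 in the parental, WT-actin and NLS-actin arrays on 202222_s_at. These signals all lay below the median level. For NLS-actin against parental cells limma gave an unadjusted p of 0.00094 and an adjusted p of 0.181. The other DES probe set, 216947_at, differed by -0.53 on the log2 scale (limma, unadjusted p = 0.555). Whether DES bears on the smooth muscle genes of the set was not tested. Fibroblast markers summed to 493 to 967, 307 to 1146 and 484 to 1204 in the same order, with 2 of 7 above the median level, and the 6 melanocyte and endothelial markers all lay below it. In each line 1 array stood apart from its replicates, and it did so the same way in all 3: replicate 2 of the parental line, replicate 1 of WT-actin and replicate 2 of NLS-actin. The log2 ratio of the 3' to the 5' control probe set of ACTB, a measure of RNA integrity, was 2.32, 2.99 and 2.65 in parental replicates 1, 2 and 3, 3.90, 2.76 and 1.93 in the WT-actin arrays and 2.80, 3.68 and 3.0 in the NLS-actin arrays. It was thus the highest of its line in each of the 3 arrays that stood apart. The ratio was also higher in each NLS-actin array than in the parental array of the same number. Both derivatives express a β-actin fusion, whose RNA the ACTB control probe sets may also read. Between lines the ratio may thus not measure RNA integrity alone, here and where it serves as a covariate. This was not tested.

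MYL9 and TAGLN had lower signals in each NLS-actin array than in any parental array, and non-muscle myosin MYH10 and the class I myosin MYO1E had the same order at smaller differences. The other myosin light chains, vinculin on its bright probe set and most kinases and crosslinkers differed little. No contractile gene differed between any pair of lines at an adjusted p under 0.05 over all genes in limma with all 9 arrays. MYL9 passed that threshold against the parental line in a fit of the parental and NLS-actin arrays with the replicate number as a block. The comparisons below share arrays, since both actin lines were set against the same 3 parental arrays.

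The promoters of the set are described before the single genes, because the list is named after SRF. RefSeq promoters on GRCh38.p14, each from 250 bases before to 50 bases after a gene start, were at hand for 32 of the 35 genes, with none listed for MYL9, TAGLN and MYH11. Both strands were searched for the CArG box, which reads the same in form on either strand. A CArG box lay in a promoter of 8 genes (25%), against 1.60% of all 27305 genes with a promoter. Counted by promoters, the shares were 10 of 64 (15.6%) and 1.29% of 35116. The list was drawn in part as SRF targets, so this share is not independent evidence of anything in these cells. A match is a description and not a bound site. The windows that hold the box are shown because they are the promoters of the set that carry the letters SRF is known to bind. Each is printed 5′ to 3′ in the direction of the gene, with the box in capitals. The 10 promoters give 9 windows, since a pair of overlapping FHL2 promoters shares 1 box.
ACTN1, chr14:68977708-68977757 (minus strand): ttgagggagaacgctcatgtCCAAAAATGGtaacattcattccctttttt
CNN2, chr19:1026499-1026548 (plus strand): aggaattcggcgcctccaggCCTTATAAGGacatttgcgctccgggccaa
FHL2, chr2:105399081-105399130 (minus strand): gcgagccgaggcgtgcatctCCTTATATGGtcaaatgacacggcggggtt
FHL2, chr2:105438585-105438634 (minus strand): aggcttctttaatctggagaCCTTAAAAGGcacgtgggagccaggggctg
MYLK, chr3:123620613-123620662 (minus strand): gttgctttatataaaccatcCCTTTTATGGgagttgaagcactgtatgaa
MYO1E, chr15:59372873-59372922 (minus strand): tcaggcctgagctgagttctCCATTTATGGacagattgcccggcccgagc
ROCK2, chr2:11345481-11345530 (minus strand): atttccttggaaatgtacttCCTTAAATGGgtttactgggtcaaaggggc
SVIL, chr10:29634975-29635024 (minus strand): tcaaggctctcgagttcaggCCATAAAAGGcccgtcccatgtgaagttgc
TPM4, chr19:16067345-16067394 (plus strand): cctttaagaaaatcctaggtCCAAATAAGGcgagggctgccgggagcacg

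Of these 8 genes, MYO1E was the only one at an unadjusted p under 0.05 between NLS-actin and parental cells on its brightest probe set. Of all genes 6.44% reached that p. The log2 fold changes of the other 7 were 0.03 (ACTN1), 0.22 (CNN2), -0.19 (FHL2), 0.07 (MYLK), -0.05 (ROCK2), 0.13 (SVIL) and -0.20 (TPM4). Boxes outside the promoter windows were not searched. The 32 genes had 64 promoters, and a window may belong to a transcript other than the full-length one of its gene. Which promoter gives the transcripts that a probe set reads was not examined, for MYLK or any other gene.

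Among the light chains of myosin II, MYL9 was lower in NLS-actin cells. MYL9 is the regulatory light chain of smooth muscle and non-muscle myosin, whose phosphorylation switches the motor on. Its brighter probe set, 201058_s_at, gave signals of 119, 112 and 150.3 in the parental arrays, 56.0, 83.3 and 219 in the WT-actin arrays and 44.8, 38.7 and 40.1 in the NLS-actin arrays. The NLS-actin arrays lay close together and below all the others, while the WT-actin arrays spread on both sides of the parental ones. Means were 127 ± 20.6, 120 ± 87.4 and 41.2 ± 3.17 (SD, n = 3 each). The log2 fold change of NLS-actin against the parental line was -1.61 (95% confidence interval -2.62 to -0.61), a 3.06-fold lower signal, with an adjusted p of 0.356 from limma over all genes. In the fit of the 6 parental and NLS-actin arrays with the replicate number as a block the value was the same and the adjusted p was 0.0307. That fit called 378 genes, or 1.91% of all genes, against 0.131% in the fit of 9 arrays. The difference from parental cells stayed between -1.70 and -1.49 when any of the 9 arrays was left out. Without the 3 arrays that stood apart it was -1.66, and with the ACTB ratio as a covariate it was -1.23.

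Against WT-actin cells MYL9 had a log2 fold change of -1.29 (95% confidence interval -2.29 to -0.29, adjusted p = 0.342 from limma), and -0.73 without WT-actin replicate 3, the array with the signal of 219. WT-actin cells and the parental line differed by -0.32 (95% confidence interval -1.32 to 0.68). The second MYL9 probe set, 244149_at, read 1.32 to 23.4 over all arrays, far below the median level, and gives no level for the gene.

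The remaining light chains were not lower in NLS-actin cells. MYL6, the essential light chain that pairs with non-muscle myosin, had signals of 7429 to 10301 in the parental arrays and 8757 to 10696 in the NLS-actin arrays, a log2 fold change of 0.09 (95% confidence interval -0.22 to 0.40). MYL12A and MYL12B are close paralogs of MYL9 and regulatory light chains of non-muscle myosin, and probes may not tell the pair apart. MYL12A had a log2 fold change of 0.13 (95% confidence interval -0.42 to 0.68) and MYL12B one of 0.34 (-0.01 to 0.68). All NLS-actin signals of MYL12B, 2734, 2449.8 and 2725, lay above the parental ones of 2266, 1890.2 and 2119. In WT-actin cells MYL12B was also higher than in the parental line, by 0.40 on the log2 scale (limma, unadjusted p = 0.0270, adjusted p = 0.676).

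TAGLN, which encodes transgelin, an actin-binding protein of the calponin family and a classical SRF target, had the next largest difference among genes above the median level. Probe set 205547_s_at gave 145, 71.8 and 103 in the parental arrays, 62.6, 66.5 and 195 in the WT-actin arrays and 50.5, 52.9 and 41.1 in the NLS-actin arrays. As for MYL9, NLS-actin arrays lay below all parental and WT-actin arrays, and WT-actin replicate 3 was the highest of all 9. The log2 fold change against the parental line was -1.10 (95% confidence interval -2.12 to -0.07, limma, unadjusted p = 0.0376, adjusted p = 0.724). Its fold and p thresholds were no longer met without any 1 of parental replicates 1 and 3 or NLS-actin replicates 1 and 3, with values from -1.14 to -0.85. It was -0.75 with the ACTB ratio as a covariate and -1.42 without the 3 arrays that stood apart. The other probe sets of TAGLN differed by -1.37 (1555724_s_at) and -0.41 (226523_at), and neither passed the test. The arrays overlapped on the latter and not on the former.

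CALD1, caldesmon, which binds actin and tropomyosin and restrains the myosin ATPase, was read by 11 probe sets. The brightest, 212077_at, gave 3343, 1725 and 2957 in the parental arrays, 3681, 4274 and 4529 in the WT-actin arrays and 2551, 923 and 2835 in the NLS-actin arrays. Parental and NLS-actin arrays overlapped, and every WT-actin array lay above both. NLS-actin against the parental line gave -0.45 (95% confidence interval -1.25 to 0.35), and 0.063 without NLS-actin replicate 2, 1 of the 3 arrays that stood apart. In the fit of the 6 parental and NLS-actin arrays with the replicate number as a block, where each NLS-actin array read below the parental array of its number, the unadjusted p was 0.0094 and the adjusted p 0.184. NLS-actin against WT-actin gave -1.14 (95% confidence interval -1.93 to -0.34, limma, unadjusted p = 0.00889, adjusted p = 0.263), and -0.63 without NLS-actin replicate 2. WT-actin against the parental line gave 0.69 (-0.11 to 1.48).

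A second bright CALD1 probe set, 201617_x_at, gave 707, 299 and 382 in the parental arrays, 402, 399 and 760 in WT-actin cells and 389, 82.4 and 274 in NLS-actin cells. Its log2 fold change against the parental line was -1.07 with an unadjusted p of 0.0498, just inside the threshold, and -0.41 without NLS-actin replicate 2. With the replicate block in the fit of 6 arrays its adjusted p was 0.073 over all probe sets. Over the 11 probe sets the differences from the parental line ran from -2.53 to 1.03. The extremes came from probe sets 231881_at and 235834_at, whose mean levels lay below the median. Every CALD1 probe set above the median level had a negative value, with -0.66 for 201615_x_at, -0.62 for 201616_s_at and -0.75 for 214880_x_at. These had unadjusted p of 0.201, 0.268 and 0.101 in limma, and arrays did not overlap on the first alone. Values of the probe sets below the median level went both ways.

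VCL, vinculin, which couples integrin complexes to actin filaments, was lower in NLS-actin cells on its dim probe set and did not pass the test on its bright one. The bright one, 200931_s_at, read 7795, 6977 and 8431 in the parental arrays, 8998, 9004 and 8309.6 in the WT-actin arrays and 8930.3, 7827 and 9525 in the NLS-actin arrays. NLS-actin and parental arrays overlapped, with a log2 fold change of 0.18 (95% confidence interval -0.09 to 0.45). Quantile normalization turned this to -0.03. The dim one, 200930_s_at, read 9.16, 22.2 and 18.1 in the parental arrays, 9.86, 14.2 and 13.5 in the WT-actin arrays and 2.23, 0.765 and 6.90 in the NLS-actin arrays. Here all NLS-actin arrays were lower, with a log2 fold change of -2.76 (95% confidence interval -4.72 to -0.81, limma, unadjusted p = 0.00916, adjusted p = 0.569 over all probe sets), and -1.11 with an offset of 8.08 added before the log2 step. Without the 3 arrays that stood apart it was -1.72 (limma, unadjusted p = 0.116). All of these signals were below the median level of 33.5. By qRT-PCR the study reported both MYL9 and VCL as lower in NLS-actin than in parental cells. Total vinculin protein was similar in its Western blots of these lines.

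Because both VCL probe sets are read on the same array, their log2 ratio does not depend on array scaling. The ratio of the dim to the bright probe set was -11.9 in NLS-actin cells and -8.97 in the parental line, a difference of -2.94, or -1.29 with the offset. The exact two-sided permutation p was 0.1, the smallest that 3 arrays against 3 can give, so that no threshold of 0.05 could be passed. The ratio is given as a description, 1 of 14 computed within MYL9, VCL, TAGLN and CALD1 (adjusted exact p = 0.7).

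**Figure D1:**
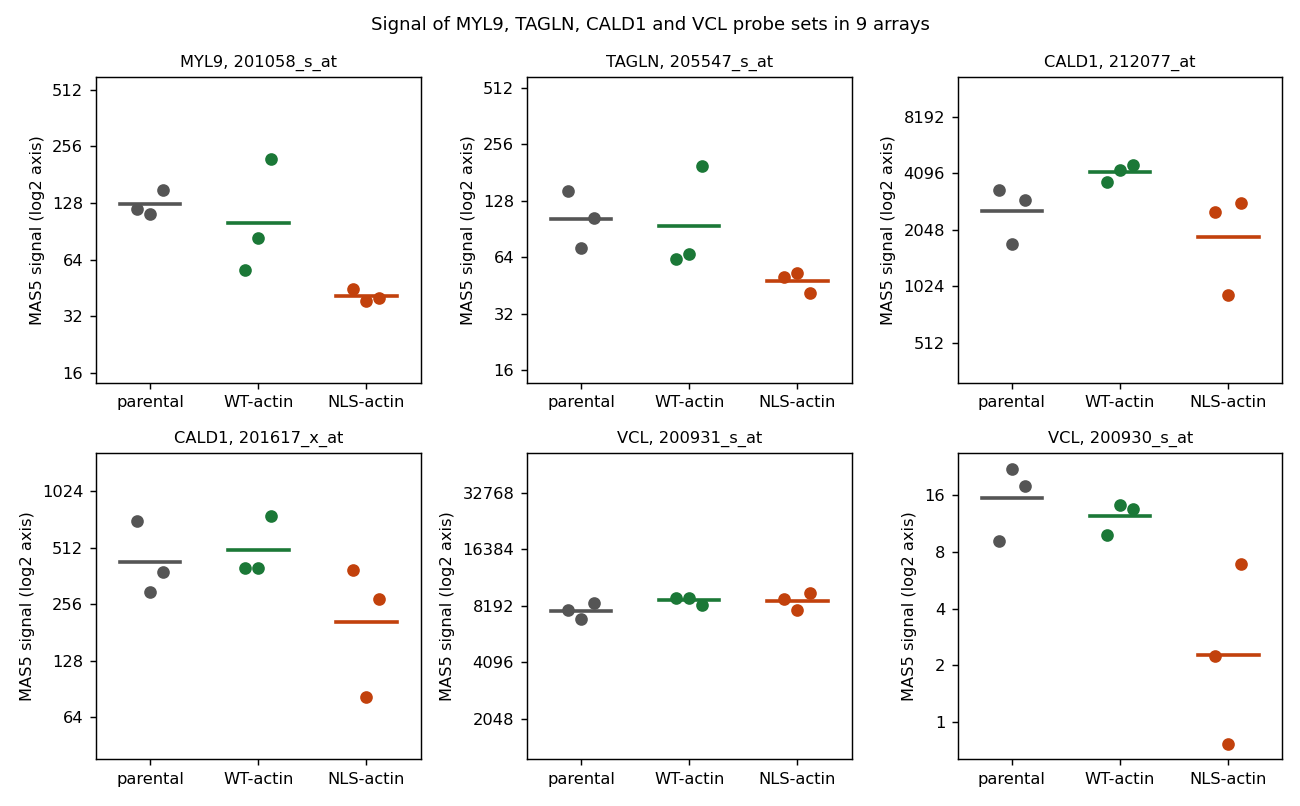
MAS5 signal on a log2 axis of 6 probe sets of MYL9, TAGLN, CALD1 and VCL in the 3 arrays of each line (points), with the mean of the log2 signals (bars). Each panel spans the same log2 range around its own signals. The NLS-actin points of MYL9 (38.7 to 44.8) and TAGLN (41.1 to 52.9) lie below all other points, the bright VCL probe set is level at 6977 to 9525, and the dim VCL probe set reads 0.765 to 6.90 in NLS-actin cells.

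Of the myosin heavy chains, MYH10, the heavy chain of non-muscle myosin IIB, was lower in NLS-actin cells on both of its probe sets. The brighter, 212372_at, read 1886, 1134 and 992 in the parental arrays, 1533, 1426 and 1058 in the WT-actin arrays and 780.4, 991 and 928 in the NLS-actin arrays, a log2 fold change of -0.52 (95% confidence interval -1.04 to 0.00, adjusted p = 0.775 from limma). Parental replicate 3 and NLS-actin replicate 2 were nearly equal there. The dimmer, 213067_at, read 303, 394 and 423 in the parental arrays, 359, 311 and 363 in the WT-actin arrays and 242, 226 and 225 in the NLS-actin arrays. Its NLS-actin arrays were tight and lay well below all other arrays, with log2 fold changes of -0.68 against the parental line (limma, unadjusted p = 0.00631) and -0.57 against WT-actin cells (unadjusted p = 0.0166). Neither passed the adjusted threshold.

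MYO1E, a single-headed myosin that links membranes to actin, had 1 probe set with signals of 1134, 1016 and 781 in the parental arrays, 596, 906 and 667 in the WT-actin arrays and 657, 429 and 702 in the NLS-actin arrays. NLS-actin arrays lay below the parental ones, and WT-actin arrays overlapped both lines. The log2 fold changes were -0.73 for NLS-actin (limma, unadjusted p = 0.0107, adjusted p = 0.514) and -0.44 for WT-actin (unadjusted p = 0.0933), and the difference between the actin lines was -0.29 (95% confidence interval -0.82 to 0.24). With the replicate block in the fit of 6 arrays the adjusted p of MYO1E was 0.0674.

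MYH9, the heavy chain of non-muscle myosin IIA, differed by -0.06 (95% confidence interval -0.65 to 0.52) between NLS-actin and parental cells and by 0.00 between the actin lines. MYH11, the smooth muscle heavy chain, was read by 7 probe sets, and muscle markers were dim in these lines. Its brightest read 287, 358 and 283 in the parental arrays, 250.3, 223 and 295 in the WT-actin arrays and 380.4, 544 and 296 in the NLS-actin arrays, so that NLS-actin arrays lay above WT-actin arrays (log2 fold change 0.63, limma, unadjusted p = 0.0303, adjusted p = 0.448). Its dim probe set 1568760_at had a log2 fold change of 3.03 against the parental line (unadjusted p = 0.00893), from 3.24, 1.47 and 3.12 in the parental arrays and 1.45, 3.60 and 18.6 in the WT-actin arrays to 21.5, 19.8 and 18.8 in the NLS-actin arrays. These values are below the median level on all 9 arrays.

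The regulators of the light chain differed little in level between NLS-actin and parental cells on their brightest probe sets. Their log2 fold changes ran from -0.35 (PPP1R12B) to 0.89 (DAPK3, near the floor). At an unadjusted p under 0.05 there were 0 of 9, against 6.44% of all genes, which for so few genes is no difference. ROCK1 and ROCK2, kinases that phosphorylate the light chain and inhibit its phosphatase, had log2 fold changes of 0.26 (95% confidence interval -0.11 to 0.62) and -0.05 (-0.43 to 0.33). PPP1CB, the catalytic subunit of the phosphatase, differed by 0.17, and PPP1R12A, its myosin-targeting subunit, by 0.02. CDC42BPA, a kinase of the MRCK family that acts downstream of CDC42, read 780.4, 778 and 789.5 in the NLS-actin arrays, below its parental signals of 798 to 1099, a log2 fold change of -0.27. Its probe sets 213595_s_at and 214464_at differed by -0.56 and -0.72, at unadjusted p of 0.0236 and 0.0451. The related CDC42BPB differed by 0.07 on its brightest probe set, and by -1.76 (unadjusted p = 0.0484) on 1557963_at, which read 49.1, 36.4 and 48.7 in the parental arrays, 9.73, 52.8 and 26.5 in the WT-actin arrays and 3.66, 29.6 and 20.8 in the NLS-actin arrays. Without NLS-actin replicate 1 this value was -0.84.

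MYLK, the myosin light chain kinase, gave different results on its probe sets. The brightest, 224823_at, read 2398, 2573 and 2661 in the parental arrays, 3536, 4211 and 2978 in the WT-actin arrays and 2382, 2590.0 and 3054 in the NLS-actin arrays. WT-actin cells were higher than the parental line by 0.48 on the log2 scale (limma, unadjusted p = 0.0106, adjusted p = 0.554), and NLS-actin cells differed from it by 0.07. Probe set 202555_s_at read 103, 90.9 and 94.4 in the parental arrays, 114, 104 and 137 in the WT-actin arrays and 60.7, 52.7 and 39.9 in the NLS-actin arrays. The NLS-actin arrays were the lowest there, by -0.93 against the parental line (unadjusted p = 0.0108) and -1.22 against WT-actin cells (unadjusted p = 0.00186, adjusted p = 0.181 over all probe sets). The value against WT-actin cells stayed past both the fold and the p threshold in 20 of 20 alternatives that read this probe set.

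PPP1R12B, a second targeting subunit of the phosphatase, entered a count only through dim probe sets. Against WT-actin cells its probe sets 1555444_a_at and 1557553_at were higher in NLS-actin cells, by 3.01 and 2.12 on the log2 scale (limma, unadjusted p = 0.0359 and 0.0284). The first read 0.625, 0.734 and 8.18 in the parental arrays, 0.635, 0.530 and 5.65 in the WT-actin arrays and 10.9, 12.9 and 7.13 in the NLS-actin arrays. The second read 20.6, 5.92 and 11.0, then 1.44, 5.16 and 6.45, then 21.3, 20.9 and 8.97 in the same order. The brightest probe set, at 275 to 641, differed by 0.20 (95% confidence interval -0.42 to 0.81). ROCK1 likewise passed the fold and p thresholds in WT-actin cells only on 230239_at, at 28.4, 48.9 and 33.4 in the parental arrays, 6.36, 18.8 and 16.7 in the WT-actin arrays and 16.4, 36.2 and 35.7 in the NLS-actin arrays, while its brightest probe set was higher in WT-actin cells by 0.37 (unadjusted p = 0.0481).

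Tropomyosins, which lie along the actin filament and gate myosin binding, had no unadjusted p under 0.05 in NLS-actin cells against the parental line on their brightest probe sets, nor had TMOD3, the tropomodulin that caps pointed ends. TPM1 nevertheless had a lower signal on a dimmer probe set. Its probe set 206116_s_at read 1090.0, 944 and 1432 in the parental arrays, 937, 1226 and 2601 in the WT-actin arrays and 780.0, 538 and 737 in the NLS-actin arrays. NLS-actin arrays lay below all others, with log2 fold changes of -0.75 against the parental line (limma, unadjusted p = 0.0326) and -1.09 against WT-actin cells (unadjusted p = 0.00409), the latter -0.67 without WT-actin replicate 3. With the replicate block in the fit of 6 arrays the adjusted p of this probe set against the parental line was 0.0380 over all probe sets.

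The brightest TPM1 probe set, 210986_s_at, read 5569, 5482 and 6689.5 in the parental arrays, 8212, 9047 and 6803 in the WT-actin arrays and 6391, 4607 and 6677 in the NLS-actin arrays. It showed no difference between NLS-actin and parental cells (-0.02, 95% confidence interval -0.39 to 0.35), and higher signals in WT-actin cells than in the parental line (0.44, unadjusted p = 0.0240). TPM2 and TPM4 differed by -0.14 and -0.20 between NLS-actin and parental cells. TMOD3 differed by 0.18 on its brightest probe set and by -0.66 on 223078_s_at (unadjusted p = 0.0111), where the parental arrays read 624 to 797 and the NLS-actin arrays 359 to 499.5.

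**Figure D2:**
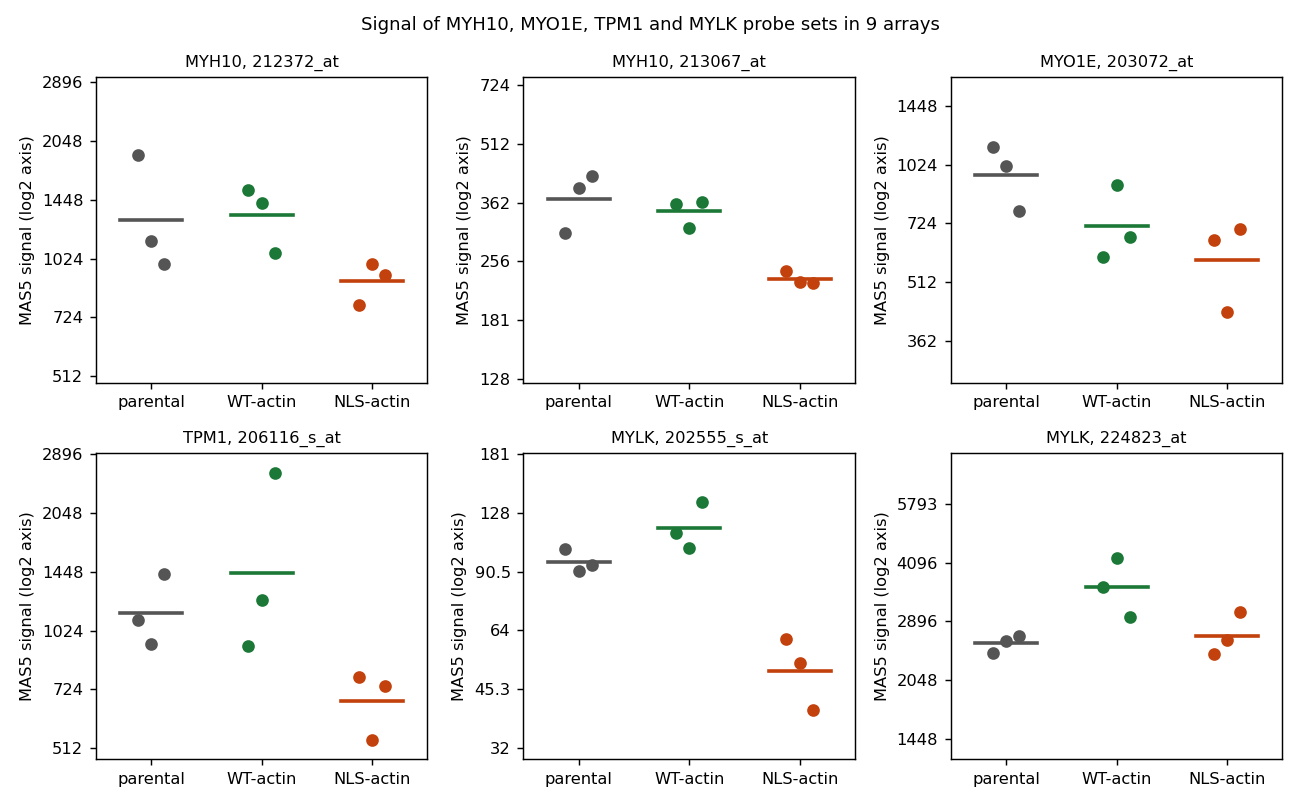
MAS5 signal on a log2 axis of 6 probe sets of MYH10, MYO1E, TPM1 and MYLK in the 3 arrays of each line (points), with the mean of the log2 signals (bars) and the same log2 range in each panel. NLS-actin points lie below all parental points in each panel but that of MYLK 224823_at, where they read 2382 to 3054 and overlap the parental points.

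The calponin family apart from TAGLN had no lower member in NLS-actin cells at an unadjusted p under 0.05 on a brightest probe set. CNN2 and CNN3, the calponins of non-muscle cells, had log2 fold changes of 0.22 (95% confidence interval -0.12 to 0.56) and 0.22 (-0.14 to 0.57). The dimmer CNN3 probe set 201445_at, also above the median level, went the other way. It read 512, 378 and 465.5 in the parental arrays and 267, 260.5 and 362 in the NLS-actin arrays, without overlap. The log2 fold change was -0.61 (limma, unadjusted p = 0.0649). On its brightest probe set CNN3 was higher in WT-actin cells than in the parental line by 0.42 (limma, unadjusted p = 0.0246, adjusted p = 0.669). TAGLN2, the transgelin of epithelial cells, differed by -0.11 (-0.40 to 0.18).

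The crosslinkers and adhesion proteins differed little, with log2 fold changes between NLS-actin and parental cells from -0.20 (SYNPO) to 0.20 (PDLIM1) on the brightest probe sets. At an unadjusted p under 0.05 there were 0 of 8, against 6.44% of all genes, again no difference for so few genes. The α-actinins ACTN1 and ACTN4, which bundle filaments, differed by 0.03 and 0.02, and the LIM proteins PDLIM1, FHL2 and LIMA1 by 0.20, -0.19 and -0.13. A dimmer LIMA1 probe set, 222457_s_at, differed by -0.395 without overlap (limma, unadjusted p = 0.0496). SVIL, supervillin, which binds myosin II and actin at membranes, differed by 0.13 on its brightest probe set and by -0.63 on 202566_s_at (limma, unadjusted p = 0.0191), which read 282, 354 and 307 in the parental arrays and 256, 204 and 158 in the NLS-actin arrays. SYNPO, the actin-associated synaptopodin, was lower in WT-actin cells than in the parental line. It read 246, 378 and 162 in the parental arrays, 202, 91.8 and 88.7 in the WT-actin arrays and 148, 439.5 and 153 in the NLS-actin arrays. The log2 fold change of WT-actin was -1.06 (unadjusted p = 0.0464, adjusted p = 0.744), with 1 overlapping array, and -0.76 without parental replicate 2.

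**Figure D3:**
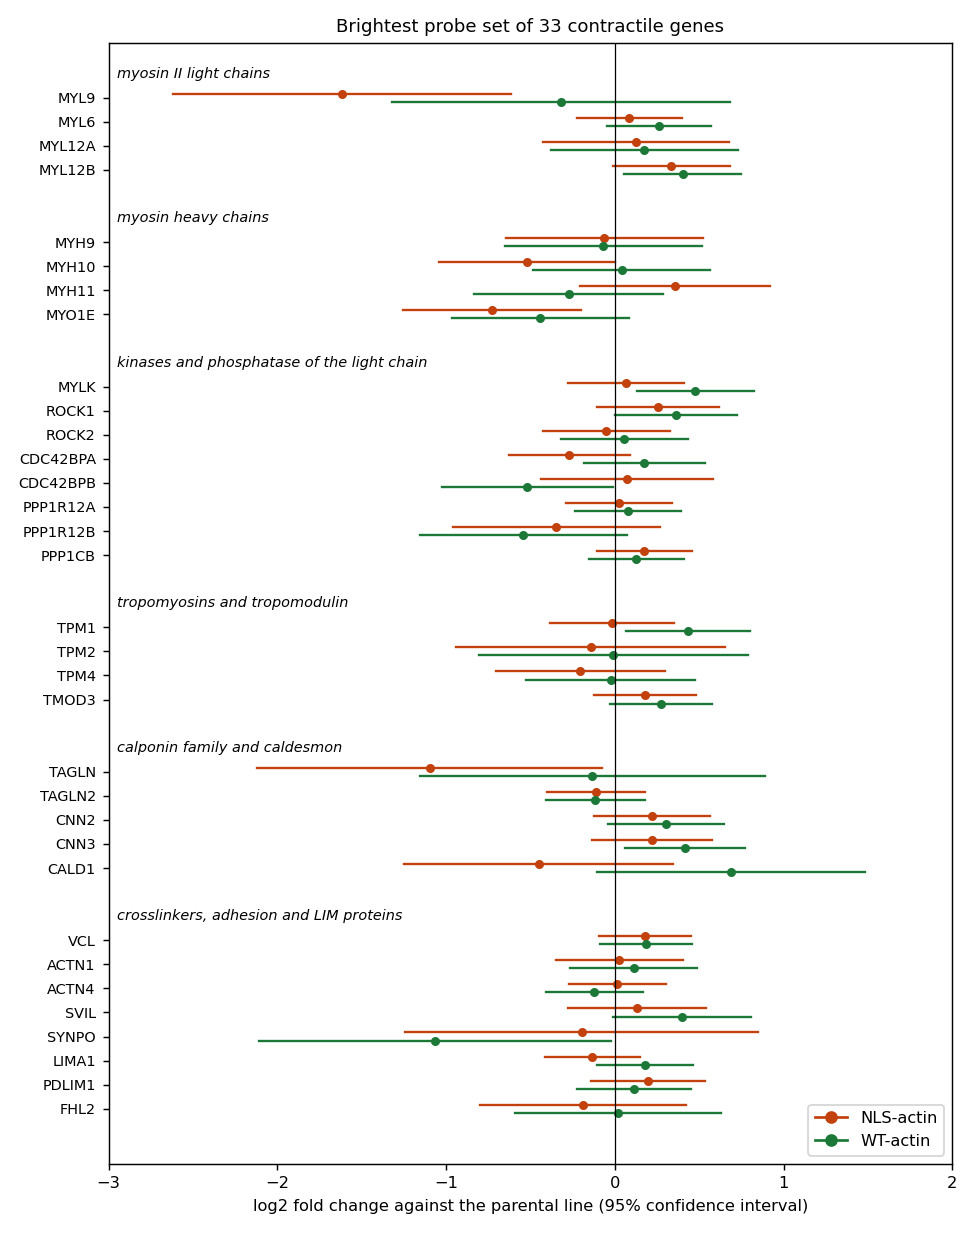
Log2 fold change against the parental line with its 95% confidence interval for the brightest probe set of 33 contractile genes, by role, in NLS-actin cells (orange) and WT-actin cells (green), which share the 3 parental arrays. CNN1 and DAPK3, near the floor, are left out. The intervals of MYL9, TAGLN and MYO1E lie below 0 in NLS-actin cells, and those of CNN3, TPM1, MYLK, MYL12B and ROCK1 lie above 0 and those of CDC42BPB and SYNPO below 0 in WT-actin cells.

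Over the whole set, 0 of the 35 genes were called at an adjusted p under 0.05 between NLS-actin and parental cells in limma, where 0.131% of all genes were called. At an unadjusted p under 0.05 there were 3 (MYL9, TAGLN and MYO1E, all lower), or 8.57% against 6.44% of all genes. By the thresholds of the study's methods, more than a 2-fold difference at an unadjusted p under 0.05 on any probe set, 6 genes passed (17.1% against 6.41% of all genes). Of these, 5 were lower (MYL9, TAGLN, CALD1, VCL and CDC42BPB), or 14.3% against 4.17% of all genes, and 1 was higher (MYH11), or 2.86% against 2.32%. MYL9 and VCL had been named by the study from these same arrays, so that their place in the list is not independent of this count. The whole list was chosen with earlier results of these data known. Its shares, here and below, are thus a description and not independent of these arrays. Contractile genes had more probe sets per gene than genes in general, and a gene with more probe sets has more chances to pass. Counted by probe sets, 6 of 110 passed (5.45% against 3.6% of all probe sets), and 3 of the 6 lay below the median level.

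The median log2 fold change of the 35 genes was 0.024, beside -0.005 over all genes, and 45.7% of them were below 0, beside 50.6%. NLS-actin and parental arrays did not overlap for 6 genes that were lower (MYL9, TAGLN, MYH10, MYO1E, CDC42BPA and TAGLN2), or 17.1% where 7.5% of all genes did so, and for 1 that was higher (MYL12B), where 6.44% did so.

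Signals that could be read well gave a more one-sided picture. Of the 110 probe sets 77 lay above the median level, and at an unadjusted p under 0.05 there were 13 lower in NLS-actin cells than in the parental line (16.9%) and 1 higher, PPP1CB 201409_s_at (1.3%). Among all 27306 probe sets above that level, 5.47% were lower and 1.91% higher. The 13 belonged to 11 genes. In 4 of these, MYL9, TAGLN, MYH10 and MYO1E, the brightest probe set was among them, and in the other 7, CALD1, CDC42BPA, LIMA1, MYLK, SVIL, TMOD3 and TPM1, only a dimmer one was. Counts of probe sets come from the limma fit of all probe sets and counts of brightest probe sets from that of genes. MYH10 212372_at had an unadjusted p of 0.0471 in the former and 0.0506 in the latter. Probe sets of 1 gene share the RNA and are not separate observations. None of the 13 passed an adjusted p of 0.05 in the fit of 9 arrays. The ACTB ratio was higher in each NLS-actin array than in the parental array of its number. Its part in these counts was not tested.

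**Figure D4:**
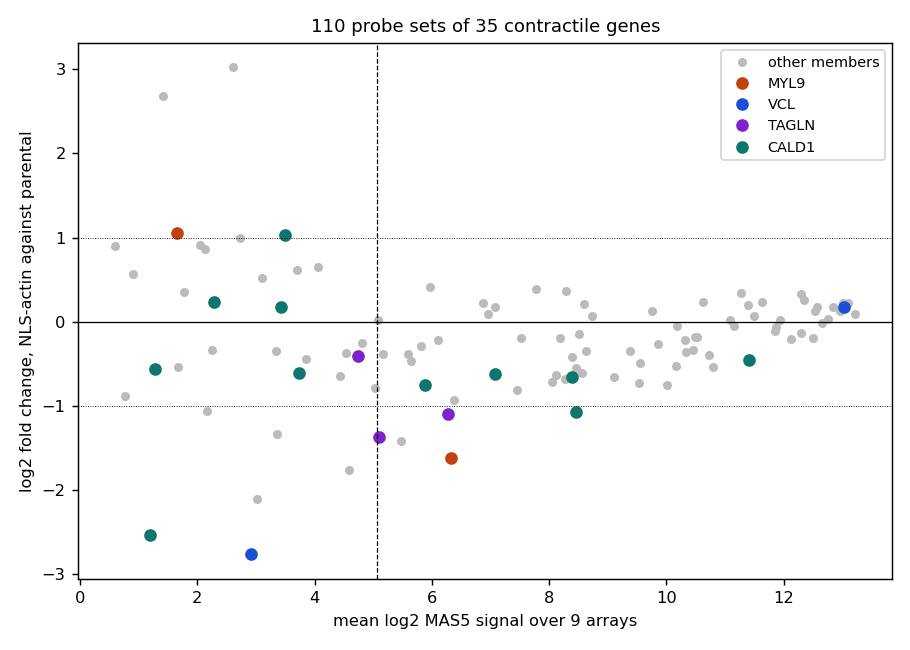
Log2 fold change of NLS-actin against the parental line (vertical) against the mean log2 MAS5 signal over 9 arrays (horizontal) for the 110 probe sets of 35 contractile genes, with MYL9, VCL, TAGLN and CALD1 coloured. The dashed line marks the median level of 5.07 and the dotted lines a fold of 2. The 33 probe sets left of the dashed line have a median standard error of 0.99, against 0.25 for the 77 on the right.

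In WT-actin cells, which carry the actin fusion without the nuclear localization sequence, 0 of the 35 genes were called at an adjusted p under 0.05 in limma against parental cells, where 0.167% of all genes were called. At an unadjusted p under 0.05 there were 7 (20% against 6.69% of all genes), with MYLK, TPM1, CNN3, MYL12B and ROCK1 higher and CDC42BPB and SYNPO lower. CDC42BPB read 443.5, 557 and 422 in the parental arrays and 374, 326 and 292 in the WT-actin arrays, a log2 fold change of -0.52. By the fold and p thresholds 2 genes passed (5.71% against 5.53% of all genes), on 2 of 110 probe sets (1.82% against 3.2%). Both were lower (SYNPO, and ROCK1 on a dim probe set), where 4.07% of all genes were lower, and 0 were higher, against 1.52%. Of the 77 probe sets above the median level 3 were lower at an unadjusted p under 0.05 (3.9% against 5.29% of all such probe sets) and 4 higher (5.19% against 2.18%). ROCK1 213044_at was not among the latter, with an unadjusted p of 0.0526 in the limma fit of probe sets and 0.0481 in that of genes. WT-actin arrays lay above all parental arrays for 6 genes (CALD1, CNN3, MYL12B, MYLK, TMOD3 and TPM1), or 17.1% where 4.71% of all genes did so, and below them for 3 (CDC42BPB, PPP1R12B and CNN1, the last near the floor), where 7.60% did so. The median log2 fold change was 0.08, beside -0.06 over all genes.

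Between the actin lines 0 of the 35 genes were called at an adjusted p under 0.05 in limma, where 0.728% of all genes were called. At an unadjusted p under 0.05 there were 9 (25.7% against 9.47%). The 7 lower in NLS-actin cells were MYL9, CALD1, MYH10, TPM1, MYLK, CDC42BPA and LIMA1, and the 2 higher were CDC42BPB and MYH11. By the fold and p thresholds 6 genes passed (17.1% against 8.23% of all genes), on 10 of 110 probe sets (9.09% against 4.67%). Of these, 5 were lower (MYL9, CALD1, MYLK, TPM1 and VCL), or 14.3% against 3.55% of all genes, and PPP1R12B was higher (2.86% against 4.82%). CALD1 passed on 4 probe sets, of which 214880_x_at read 88.9, 64.1 and 40.7 in the parental arrays, 116, 67.8 and 95.6 in the WT-actin arrays and 36.1, 26.5 and 51.1 in the NLS-actin arrays. Of the 77 probe sets above the median level 16 were lower at an unadjusted p under 0.05 (20.8% against 4.28% of all) and 4 higher (5.19% against 5.08%). All 4 TPM1 probe sets above 5.07 were among the lower ones, with log2 fold changes from -1.09 to -0.45. NLS-actin and WT-actin arrays did not overlap for 7 genes that were lower (CALD1, CDC42BPA, LIMA1, MYH10, MYL9, TAGLN and TPM1), where 5.73% of all genes did so, and for 2 that were higher, where 8.12% did so. The median log2 fold change was -0.09, beside 0.03 over all genes. On the brightest probe sets of TPM1, MYLK and CALD1 WT-actin arrays all read above the parental ones, and the differences between the actin lines were larger than those between NLS-actin and parental cells.

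**Figure D5:**
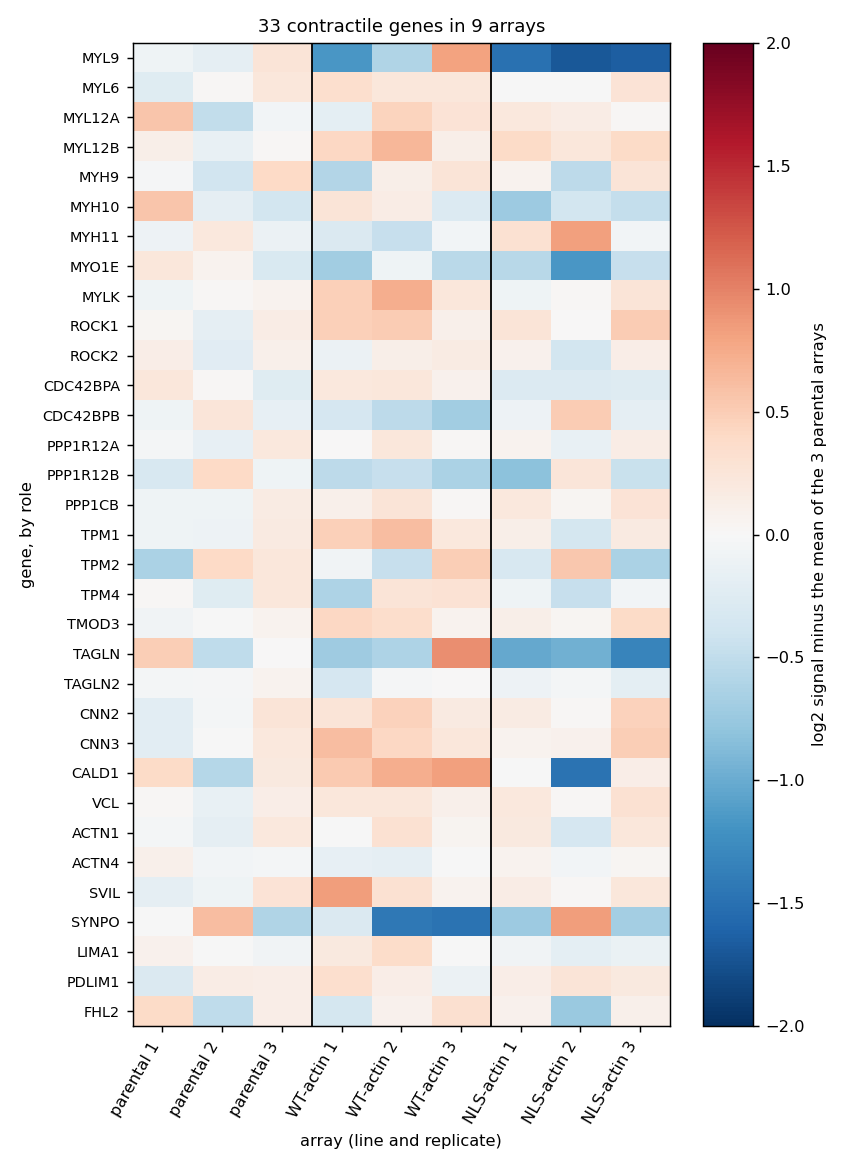
Log2 signal of the brightest probe set of 33 contractile genes in each of the 9 arrays, relative to the mean of the 3 parental arrays, with the genes ordered by role and the colour scale ending at -2 and 2. MYL9 and TAGLN are the rows with the deepest blue across all 3 NLS-actin arrays, and CALD1 is low in parental replicate 2 and NLS-actin replicate 2.

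The contractile genes were unevenly spread over the arrays of a line. In parental replicate 2, 17 of the 35 genes had the lowest signal of their line (48.6%, against 29.2% of all genes), in NLS-actin replicate 2 there were 21 (60% against 34.8%) and in WT-actin replicate 1 there were 13 (37.1% against 32.6%). In WT-actin cells the most, 19, were lowest in replicate 3 (54.3% against 38.3%), which did not stand apart. The 8 genes lowest in all 3 were MYL9, CALD1, TPM4, ACTN1, MYH9, FHL2, ROCK2 and PPP1R12A (22.9% against 9.20% of all genes). The part of the arrays that stood apart, or of RNA integrity, in these values was not tested beyond the fits without those arrays and with the ACTB ratio given above.

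Other targets of SRF and MRTF were read beside the set. Of 14 further SRF targets 13 were measured, with a median log2 fold change of -0.29 between NLS-actin and parental cells. At an adjusted p under 0.05 there were 0, against 0.131% of all genes. At an unadjusted p under 0.05 there were 2, against 6.44% of all genes. FILIP1L, filamin A-interacting protein 1-like, had the clearest pattern. It read 522, 398 and 511 in the parental arrays, 703, 737 and 935 in the WT-actin arrays and 171, 213 and 219.7 in the NLS-actin arrays, with no overlap between any pair of lines. Its log2 fold changes were -1.24 against the parental line (adjusted p = 0.0579) and -1.97 against WT-actin cells (adjusted p = 0.000985 from limma). SRF itself differed by -0.35 (unadjusted p = 0.0879), the matricellular CCN1 and CCN2 by -0.66 and -0.75 with wide spreads, and smooth muscle actin ACTA2 by -0.29. By the fold and p thresholds FILIP1L and ITGB1 were lower and ANKRD1 was higher, where 4.17% of all genes were lower and 2.32% higher. ITGB1, the integrin β1 subunit, passed on dim 215879_at (17.6, 15.1 and 18.2 in the parental arrays, 0.669, 9.36 and 0.327 in the NLS-actin arrays). Its brightest probe set differed by -0.04, while 1553530_a_at and 1553678_a_at, both above the median level, were lower without overlap by less than 2-fold, with log2 fold changes of -0.81 and -0.63 (limma, unadjusted p = 0.0194 and 0.0173). ANKRD1 was also dim, with means of 3.58 and 14.2.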

How the data were processed

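The authors hybridised RNA of the 3 HaCaT lines, 3 arrays each, and deposited MAS5 intensities, linear signals scaled so that the mean of every array after trimming 2% at each end lay between 500.04 and 500.06. Neither the MAS5 version nor its target is given in the sources used here. Signals were converted to log2 with no offset or filter. Without the 62 controls 54613 probe sets were fitted, 41091 of them with a single gene symbol, and each gene was read on its brightest probe set by mean log2 signal. Genes (19775) and probe sets were each fitted with limma 3.58.1 in R 4.3.3 (1 mean per line, variance following the signal level), adjusted by Benjamini and Hochberg over all of them, with a threshold of 0.05. Adjusted p-values are over all genes unless said otherwise. The fold and p thresholds of the study's methods, which name no test for the arrays, were set on all probe sets of a gene in this fit. Ratios within an array were compared by exact permutation. The script was tested on simulated data. The members and gene lists were chosen with earlier results of these data known. The text names every member with a probe set, array values being given for MYL9, VCL, TAGLN and CALD1 and for genes past a threshold. Those given for MYH10, MYO1E, MYL12B, CNN3, TMOD3 and SVIL were chosen after their values were seen. So were the dimmer probe sets named at an unadjusted p under 0.05.

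Replicate numbers come from the labels, which do not say what they mark. Residual correlations of same-numbered parental and NLS-actin arrays were 0.242, 0.755 and 0.394, so these lines were also fitted as pairs, an alternative chosen after seeing the data. For WT-actin arrays they ranged from -0.551 to 0.494. Replicates 1 and 3 also correlated across numbers (0.329 and 0.493). The remaining alternatives were an offset of 8.08 (the 25 percentile), quantile normalization, removal of dim probe sets, no trend in the variance, a block over all arrays, a fit of 2 lines, the mean of all probe sets, omission of cross-hybridizing probe sets, of the 3 arrays that stood apart and of each array, the ACTB ratio as a covariate, and Tukey's and Student's tests. Cross-hybridizing probe sets were taken as those with names that end in _x_at or _s_at. Figures were made with matplotlib 3.10.9. The number of arrays limits the precision.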

Additional observations from a re-analysis of the deposited data

How the results depend on the processing

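In limma 0 contractile genes were called at an adjusted p under 0.05 in any comparison under any alternative, with a single exception, the replicate block in a fit of the parental and NLS-actin arrays only, which called 1 gene, MYL9. Paired this way, 7 genes passed the fold and p thresholds against the parental line, and the block changed no other call at an adjusted p under 0.05 on a brightest probe set. This fit called 378 genes (1.91% of all genes) at an adjusted p under 0.05.

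Counts past the fold and p thresholds moved more. Shares over all genes under the alternatives are not given here, so that these shifts cannot be read as a trait of the contractile genes. For NLS-actin against the parental line the main count of 6 became 3 with quantile normalization, with a variance without the intensity trend and with Tukey's test, 2 with a filter on dim probe sets and without cross-hybridizing ones, and 1 when the probe sets of a gene were replaced by their mean, and lay between 4 and 6 when 1 array was left out. For WT-actin the main count of 2 became 0 with quantile normalization, the mean of all probe sets, Tukey's test and Student's test, 1 with the filter, with a variance without the trend and with the replicate block between parental and NLS-actin arrays, and between 1 and 3 without 1 array. Between the actin lines the main count of 6 became 1 with the mean of all probe sets, 2 without cross-hybridizing probe sets, with Tukey's test and with Student's test, and 4 to 8 without 1 array. The causes were not tested, except that the filter and the omission leave fewer probe sets. With the mean of all probe sets the median log2 fold change was -0.187 in NLS-actin cells and -0.067 in WT-actin cells. That mean gave -0.28 for MYL9 and -1.29 for VCL, because it weighs dim probe sets equally.

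Probe set 201058_s_at of MYL9 kept its direction and its place past the fold and p thresholds against the parental line in the 21 alternatives that read it. The mean of both MYL9 probe sets did not pass (unadjusted p = 0.674 from limma). Omission of cross-hybridizing probe sets removed 201058_s_at by its name. It left MYL9 on the dim 244149_at, where the log2 fold change had the opposite sign (1.05). VCL 200931_s_at reversed to -0.03 with quantile normalization, and CALD1 212077_at to 0.063 without NLS-actin replicate 2, in a range of -0.75 to 0.063 over the arrays left out. Signals below the median level, 33 of 110 probe sets, had a median standard error of 0.99 on the log2 scale, and most differences in them were not resolved. In NLS-actin cells 3 of these probe sets passed the fold and p thresholds against the parental line. MYH11 1568760_at, which was higher, stayed past them in 21 alternatives. VCL 200930_s_at, which was lower, did so in 19 and not in 1. CDC42BPB 1557963_at, also lower, did so in 11 and not in 10. In the main limma fit their adjusted p-values over all probe sets were 0.567, 0.569 and 0.781.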
